A study of Drosophila melanogaster with 2 samples.

Results

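Binding of CG6813 was described at divergent gene pairs, in which 2 neighbouring genes lie head to head and are transcribed away from each other. Of the 5012 CG6813 peaks in the authors' thresholded dm6 list, 397 (7.92%, exact 95% binomial interval 7.19 to 8.70) met the definition. A summit was kept when it lay within 500 bp of a transcription start site (TSS), when the nearest TSS of any gene belonged to a protein-coding gene, and when, within 500 bp upstream of that TSS, a different gene started on the other strand. The other peaks lay at 1425 coding promoters without such a partner, called single promoters here, at 211 noncoding gene starts, and at 2979 places farther than 500 bp from any TSS.

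CG6813 carried a C-terminal eGFP tag in a transgenic fly line, and the fusion protein was precipitated with an anti-GFP antibody from whole embryos of both sexes collected 0 to 24 h after laying. The samples formed 1 group of 2 biological replicates, numbered 2 and 3 in the labels. Replicate 1 was not analysed here, and no control library was used here. All cell types of the embryo contributed to the chromatin, which was sonicated to 200 to 800 bp, so a position on the scale of a promoter is an average over cells and fragments.

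CG6813 belongs to the ZAD zinc finger proteins, a large insect family in which an N-terminal zinc finger-associated domain mediates dimerisation and C2H2 zinc fingers contact DNA. Divergent promoters are frequent in the compact Drosophila genome. Their genes share a short intergenic region that often carries the core promoter elements of housekeeping genes, such as the DNA replication-related element (DRE), and is often occupied by insulator proteins such as BEAF-32.

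Sequence is shown for 6 pairs among the 20 strongest summits, to show the kind of DNA that lay under the peaks between the TSSs. The sequences hold no annotated exon and come from the RefSeq Release 6 assembly, which is the dm6 build. They are 5 of the strongest such pairs and RpL14–Nelf-E, a pair with a ribosomal protein gene. Art3, Tcs5, CG13390, CG5611, eIF4EHP and Nelf-E lie to the left of the printed sequence and their partners to the right. The plus strand is given from 5′ to 3′, and the capitals mark the 21 bases centred on the summit. The whole interval between the TSSs is printed for 4 pairs. For CG5611–Mtl and CG18428–eIF4EHP, whose intervals exceeded 300 bp, the 201 bases around the summit are printed.
mRpS10–Art3, chr3R:15229409-15229664, + strand: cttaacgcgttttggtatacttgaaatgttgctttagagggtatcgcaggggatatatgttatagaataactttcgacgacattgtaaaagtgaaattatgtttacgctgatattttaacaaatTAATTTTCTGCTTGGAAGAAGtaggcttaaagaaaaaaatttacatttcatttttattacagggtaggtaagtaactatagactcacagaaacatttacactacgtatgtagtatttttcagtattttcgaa
CHMP2B–Tcs5, chr3L:5139396-5139618, + strand: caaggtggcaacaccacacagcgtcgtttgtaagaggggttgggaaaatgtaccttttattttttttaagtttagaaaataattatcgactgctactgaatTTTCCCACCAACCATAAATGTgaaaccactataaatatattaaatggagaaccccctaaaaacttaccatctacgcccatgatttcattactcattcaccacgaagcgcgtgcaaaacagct
CG13390–CG17294, chr2L:8376798-8377034, + strand: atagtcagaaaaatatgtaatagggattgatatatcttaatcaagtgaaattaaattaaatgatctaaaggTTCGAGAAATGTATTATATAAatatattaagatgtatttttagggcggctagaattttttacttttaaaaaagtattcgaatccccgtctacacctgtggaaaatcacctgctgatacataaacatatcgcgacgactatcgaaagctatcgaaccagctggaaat
CG5611–Mtl, chr3R:27636068-27636268, + strand: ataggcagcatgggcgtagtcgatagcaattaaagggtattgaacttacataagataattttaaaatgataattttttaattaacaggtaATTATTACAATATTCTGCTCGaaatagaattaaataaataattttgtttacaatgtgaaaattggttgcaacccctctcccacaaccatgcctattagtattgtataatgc
CG18428–eIF4EHP, chr3R:24109105-24109305, + strand: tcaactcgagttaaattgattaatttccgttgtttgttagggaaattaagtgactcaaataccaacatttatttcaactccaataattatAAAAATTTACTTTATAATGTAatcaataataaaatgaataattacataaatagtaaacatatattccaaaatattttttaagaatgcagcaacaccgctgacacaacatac
RpL14–Nelf-E, chr3L:8600880-8601005, + strand: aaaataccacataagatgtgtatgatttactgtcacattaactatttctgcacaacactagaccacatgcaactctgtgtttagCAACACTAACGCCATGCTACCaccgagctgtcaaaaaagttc

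The printed DNA was rich in A and T. Its GC content was 30.1% at mRpS10–Art3, 38.1% at CHMP2B–Tcs5, 30.8% at CG13390–CG17294, 29.4% at CG5611–Mtl, 24.4% at CG18428–eIF4EHP and 38.9% at RpL14–Nelf-E. Over the 201-bp windows centred on all 397 summits, GC content had a median of 35.3% and ranged from 13.9 to 58.7%. It was lower at summits between the TSSs, with a median of 33.1%, than at those downstream of the nearest TSS, with 40.8%. In profiles of mean GC content, the members stood at 34.7% at the summit and at 49.96% and 49.3% at 500 bp to either side, while single-promoter summits went from 38.4% at the summit to 42.3% and 41.9%. The flanks of a divergent pair lie in transcribed sequence on both sides, and the part of this in the contrast was not tested.

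The 397 summits belonged to 372 gene pairs with 744 genes. A pair had 1 summit in 348 cases, 2 summits in 23 and 3 summits in 1. The partner gene was protein-coding at 381 summits (96.0%, 93.5 to 97.7), a noncoding RNA gene at 14, a tRNA gene at 1 and a pseudogene at 1. The annotation held 2310 divergent pairs of the same kind, so the members covered 16.1% of them. A thresholded summit lay between the TSSs or within 500 bp of them at 442 pairs (19.1%, 17.5 to 20.8), and a region of the authors' pooled list of 30000 at 1145 (49.6%).

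Members were present on the 5 large arms. The members covered 38 of 335 divergent pairs on X (11.3%), 81 of 466 on 2L (17.4%), 68 of 460 on 2R (14.8%), 80 of 451 on 3L (17.7%) and 105 of 585 on 3R (17.9%). None of the 12 pairs on chromosome 4 had a member, nor did the 1 pair on Y. The share on X was the lowest of the 5, and whether the arms differed was not tested.

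Among thresholded summits at coding promoters, 397 of 1822 (21.8%, 19.9 to 23.8) were divergent. Among the weaker pooled regions at coding promoters that did not reach the threshold, 783 of 4925 (15.9%, 14.9 to 17.0) were. Of the 1180 pooled regions at divergent pairs, 397 (33.6%) were in the thresholded list, beside 16.7% of all pooled regions. All pooled regions include those far from any promoter, and the list itself entered the definition, so this last share is given as a description. The weakest member had a signal of 146.3 and the strongest divergent region outside the list 145.2. The widest pair kept had a spacing of 498 bp and the narrowest pair left out 502 bp.

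The share of divergent pairs with a summit was highest at intermediate spacing, taken here as the smallest distance between any opposite TSSs of the 2 genes. A thresholded summit was present at 15.8% (12.7 to 19.3) of the 494 pairs with TSSs up to 100 bp apart and at 15.0% (11.8 to 18.6) of the 454 pairs 101 to 200 bp apart. The share was 23.6% (20.3 to 27.1) of the 619 pairs at 201 to 300 bp and 22.8% (18.9 to 27.1) of the 434 pairs at 301 to 400 bp. At 401 to 500 bp it was 16.5% (12.5 to 21.1) of 309 pairs. The share with any pooled region did not follow the same order, being 45.7, 42.3, 49.3, 58.1 and 55.0% in the same bins. The interval at 201 to 300 bp did not overlap those of narrower pairs, but it overlapped that at 401 to 500 bp. A longer interval also offers more sequence in which a summit can fall, and its part in these shares was not tested. Intervals here cover counting error only.

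**Figure D1:**
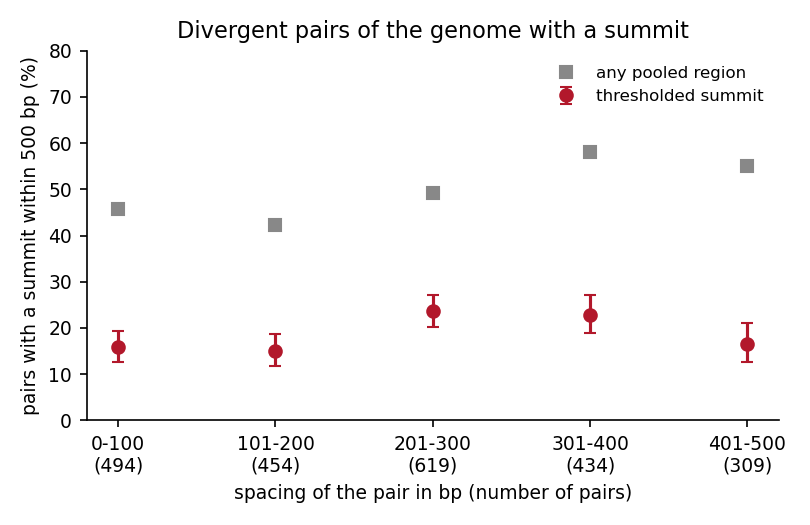
Share of all divergent pairs of the genome with a CG6813 summit between or within 500 bp of their TSSs, by spacing of the pair. Red points are thresholded summits with exact 95% binomial intervals, and grey squares are any region of the pooled list; the red points are highest at 201 to 300 bp (23.6%) and 301 to 400 bp (22.8%).

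Most of the summits lay between the TSSs of the pair, but not all. Of the 397, 280 (70.5%, 65.8 to 74.97) fell between, and 117 lay downstream of the nearest TSS, inside the transcribed part of a gene. The split used the nearest TSS only, so a summit counted as between can lie inside a transcript from another TSS of the gene. The stronger p38a summit, described below, was such a case. With the most 5′ TSS of each gene the share between was 61.7%. Of those 117, 46 lay within 50 bp of the TSS, 26 lay 51 to 100 bp away, 24 lay 101 to 200 bp away and 21 lay farther. At single promoters, 1096 of 1425 summits (76.9%, 74.6 to 79.1) lay upstream of the nearest TSS, where no partner TSS bounds that side. A position upstream of the TSS was thus not particular to divergent pairs. Divergent regions that did not reach the threshold lay between the TSSs in 342 of 783 cases (43.7%, 40.2 to 47.2). That interval did not overlap the interval of the members. The label of peaks between gene pairs therefore holds for the larger share of the members, and all 397 are described here.

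The median summit lay 52 bp upstream of the nearest TSS, with quartiles at 100 bp upstream and 15 bp downstream. For the 280 between the TSSs the median position was −80.5 bp. A summit between the TSSs cannot lie farther upstream than the middle of the pair, because the nearest TSS was used, so the median of 137 bp upstream at single promoters is not comparable. Between the TSSs, the median distance to the midpoint was 50 bp, with 140 of 280 within 50 bp of it and 82 within 25 bp. In the divergent regions below the threshold the median distance was 64.25 bp, and 151 of 342 lay within 50 bp.

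**Figure D2:**
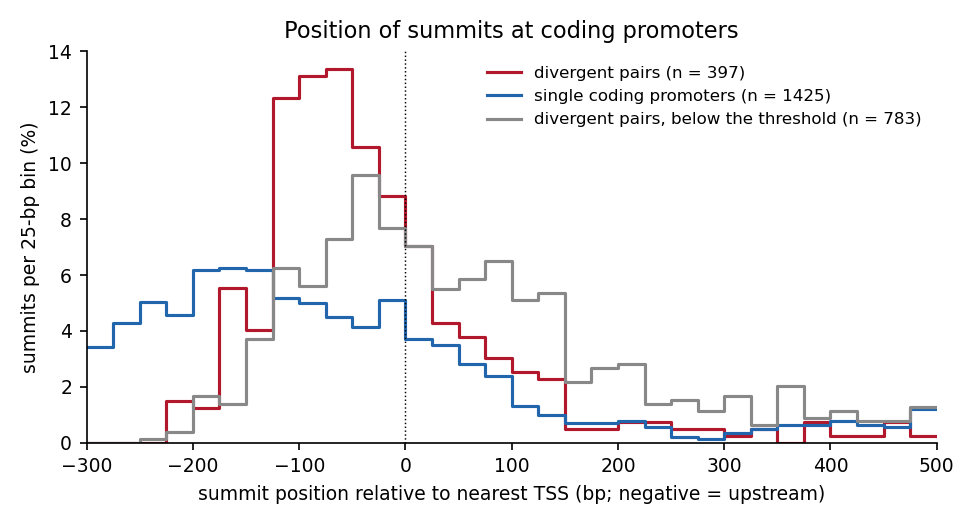
Distribution of summit positions relative to the nearest TSS, in bins of 25 bp, for divergent-pair summits (red), single coding promoter summits (blue) and divergent regions below the threshold (grey). The vertical dotted line is the TSS; the red curve has its median 52 bp upstream and the grey curve 21 bp downstream, and bins outside the plotted range are not drawn.

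The position varied with the distance between the TSSs. Spacing here is that from the TSS nearest the summit to its closest partner TSS, so a pair with several TSSs can have another spacing than in the genome-wide count. Of the 47 summits with TSSs up to 100 bp apart, 11 (23.4%, 12.3 to 38.0) lay between the TSSs, against 31 of 133 (23.3%) of the regions below the threshold. At pairs 101 to 200 bp apart the share was 32 of 54 (59.3%, 45.0 to 72.4). At pairs 201 to 300 bp apart it was 114 of 139 (82.0%, 74.6 to 88.0), against 90 of 182 (49.5%) below the threshold. In the same bin the median position of all 139 was 74 bp upstream of the nearest TSS, and the 114 between the TSSs lay a median of 40 bp from the midpoint. At 301 to 400 bp and 401 to 500 bp the shares were 76.2% and 82.1%. The median distance from the midpoint, again of the summits between the TSSs, grew to 78 and 117.5 bp. A narrow interval leaves little room for a summit, and this was not tested apart from the spacing itself.

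**Figure D3:**
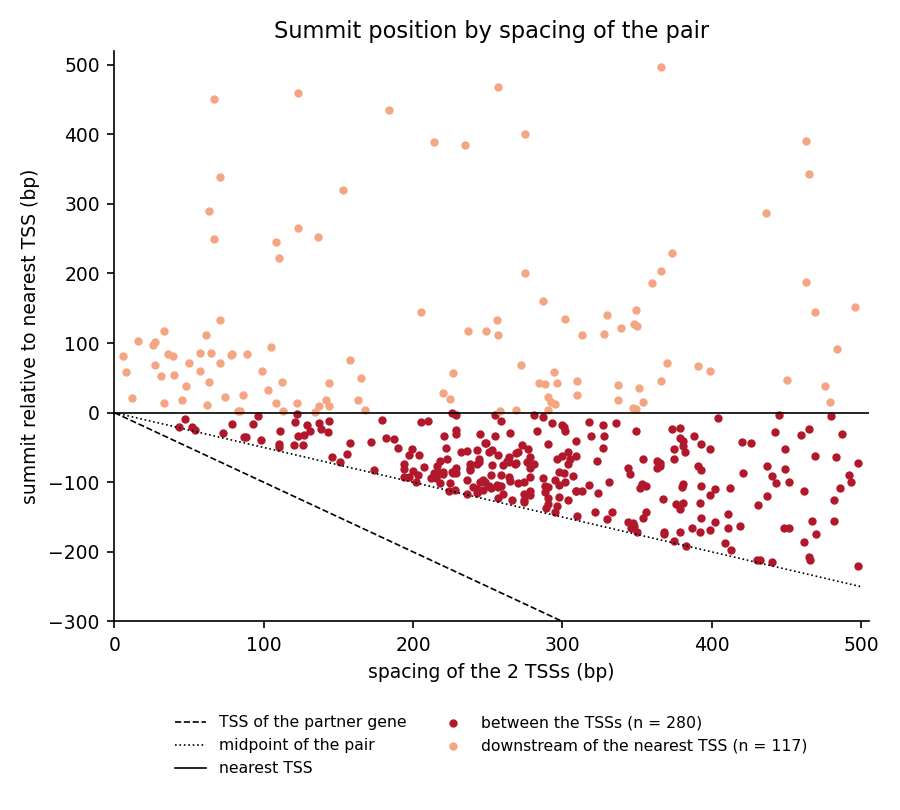
Position of each of the 397 summits relative to the nearest TSS (vertical axis, bp, negative is upstream) against the spacing of the pair (horizontal axis, bp). Dark points lie between the TSSs (280) and light points downstream of the nearest TSS (117); the dashed, dotted and solid lines are the TSS of the partner, the midpoint and the nearest TSS, and many dark points with a spacing of 201 to 300 bp lie near the dotted line.

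The narrow pairs among the 100 strongest summits show the case outside the interval. E(z), the histone methyltransferase of Polycomb repressive complex PRC2, and Cnep1r2 have TSSs 16 bp apart, and the summit lay 103 bp inside E(z), with a signal of 631.7. At p38a, a stress-activated MAP kinase gene, and CG6178 a summit with a signal of 442.8 lay 97 bp downstream of TSSs 26 bp apart. The same genes had a stronger summit, with 738.8, which lay between TSSs 382 bp apart. That summit lay 56 bp upstream of another p38a TSS but downstream of the first p38a TSS. At CG8892 and CG34126 the spacing was 27 bp and the summit lay 101 bp downstream. These 3 summits lay inside the nearest gene. The 3 widest pairs among the 100 strongest were Pax–Alp12 (498 bp, summit 220 bp upstream of Pax, which encodes the focal adhesion protein paxillin), CenG1A–mRpS23 (492 bp, 89 bp upstream) and RpS19a–Rok (480 bp, 5 bp upstream of RpS19a). Their summits thus ranged from near the midpoint to the TSS itself.

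The form of the deposited peaks limits how finely position can be read. Of the 397 members, 317 had the same width of 420 bp with the summit at the centre, and the other 80 were narrower, with a median width of 222.5 bp. The narrower ones were the stronger, with a median signal of 752.7 against 218.7. The share between the TSSs was 59 of 80 (73.8%) among the narrower peaks and 221 of 317 (69.7%) among those of 420 bp. The share was thus similar in both forms.

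The strongest divergent summit lay between CenG1A, which encodes an Arf GTPase-activating protein, and mRpS23, which encodes a protein of the small mitochondrial ribosomal subunit (FBgn0028509 and FBgn0260407; chr2L:13835306-13835634, summit at 13835475). Its signal was 2123.6 in the thresholded list, 1585 in replicate 2 and 552.3 in replicate 3. The second lay 94 bp inside Chro, which encodes the chromodomain protein Chromator, and near Ssl1, a subunit of the transcription factor TFIIH (FBgn0044324 and FBgn0037202; chr3L:22878733-22879061). Its signals were 1967, 1460 and 512.4 in the same order. The third, whose sequence opens the set above, lay 122 bp upstream of mRpS10, another mitochondrial ribosomal protein gene, with Art3, an arginine methyltransferase gene, on the other side. Its signals were 1959, 1507 and 462.1. These 3 ranked 11, 17 and 15 among the 30000 regions of replicate 2 and 20, 24 and 30 in replicate 3.

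CHMP2B, which encodes an ESCRT-III subunit, and Tcs5, which acts in tRNA modification, shared the fourth summit, with a signal of 1658. It lay 112 bp upstream of CHMP2B in an interval of 224 bp, that is, at the midpoint. The fifth lay 165 bp upstream of Pdrg1, a prefoldin-like gene, in the 346 bp to Pal1, a peptide amidation enzyme gene, with a signal of 1646. CG11309–CG7632 and CG13390–CG17294, 4 genes annotated as uncharacterised, each reached 1612. In the first of these pairs the spacing was 39 bp and the summit lay 81 bp downstream, and in the second the spacing was 238 bp and the summit lay 82 bp upstream.

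RpL7, a large-subunit ribosomal protein gene, and Ripalpha, whose product binds replication protein A, had a signal of 1458. Mtl, a Rac-family GTPase gene, and CG5611 had 1416. The cap-binding translational repressor gene eIF4EHP and CG18428 had 1355. The mitochondrial protease gene Lon and the GPI-anchor synthesis gene PIG-F had 1265.5, and CIA30, a complex I assembly factor gene, and CG7601 had 1238. CG8360–CG8372 had 1269 and CG3552–CG3437 had 1241. The lower ranks of the 20 held RpS27–Nup37, CG9147–Fbw5, tank–CG12194, RpL14–Nelf-E, SLIRP2–Mkk4 and mRpL23–CG9004, with signals from 993.7 to 1215.4. Nup37 encodes a nucleoporin, Nelf-E a subunit of the complex that holds paused RNA polymerase II, and Mkk4 a kinase of the JNK pathway.

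Of these 20 summits, 13 lay between the TSSs, with a median of 108 bp upstream of the nearest TSS. Their lowest rank was 139 in replicate 2 and 227 in replicate 3. The ratio of replicate 2 to replicate 3 signal was between 1.85 and 3.45. The 3 with a cytoplasmic ribosomal protein gene had ratios of up to 2.10, and the other 17 had ratios of at least 2.58. These groups did not overlap within the 20, but the ranges overlapped among all members at or above a signal of 442.8. There the ratio ranged from 1.38 to 2.70 with a ribosomal protein gene and from 1.64 to 4.77 without one.

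Across the members, the signal in the thresholded list had a median of 252.8 with quartiles at 180.5 and 442.8. At single promoters the median was 232.9, with quartiles at 177.9 and 394.0. The difference in median log2 signal was 0.12 in the thresholded list, 0.13 in the replicate 2 list and 0.07 in the replicate 3 list (SD of the 2 replicate values 0.05). The quartile ranges overlapped over most of their length, and no test was made because peaks are not replicates. Summits between the TSSs had a median of 271.9 and those downstream of the nearest TSS 221.9. That order held in each replicate, at 184.7 against 141.6 in replicate 2 and 92.5 against 79.5 in replicate 3.

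Most of the members were found in each replicate. A region lay within 200 bp in both replicate lists for 384 of 397 (96.7%, 94.5 to 98.2) and in 1 list for the other 13. The same held for 1407 of 1425 summits at single promoters, 208 of 211 at noncoding gene starts and 2928 of 2979 farther from a TSS. The share of the members was thus the lowest of these classes. Among the 5012 strongest regions of replicate 2 were 345 members (86.9%, 83.2 to 90.1), against 90.1% of all thresholded peaks. Among the 5012 strongest of replicate 3 were 330 (83.1%, 79.1 to 86.7), against 77.6% of all thresholded peaks. In replicate 2 the background lay at the upper bound of the members' interval, and in replicate 3 it lay under the lower bound. Both conditions held for 286 members and neither for 8. The members entered through the pooled signal, to which both replicates contributed, so these shares are not independent of the choice. The median distance between the summits of the replicates was 19 bp.

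Replicate 2 had the higher signal at 369 of the 384 members with both values, and replicate 3 at 15. The median ratio was 2.17, with quartiles at 1.64 and 2.79. The median ratio was near this in the other classes, at 2.14 at single promoters, 2.11 at noncoding gene starts and 2.23 farther from a TSS. The scales of the replicate lists were set by the authors, so the ratio describes the deposited values only. It also varied with signal: without ribosomal protein genes, its median was 2.21 over 365 members and 2.70 over the 77 at or above a signal of 442.8.

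The highest ratio was 6.82, between mei-41, the fly ATR checkpoint kinase gene, and TH1, which encodes another subunit of the NELF complex, where replicate 2 had 160.4 and replicate 3 had 23.5. The next were CG4338–Cp190, at 6.69, and CG8132–RpL34b, at 6.21. At each of these 2 pairs, the replicate 2 region was the same that matched a stronger neighbouring summit of the pair, so those ratios combine different summits. The lowest ratios were 0.449 at Srp14–EloB, a signal recognition particle gene beside the Elongin B gene, 0.552 at cuff–CG13185 and 0.569 at Atg17–Xe7, an autophagy gene beside Xe7. The signals at Srp14–EloB were 41.5 and 92.4. At cuff–CG13185 and Atg17–Xe7 the replicate 3 region was likewise shared with another summit of the pair.

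Summits of a pair that had more than 1 lay at least 200 bp apart. In the 24 such pairs, the outermost summits lay a median of 204 bp apart, with a maximum of 981 bp in tank–CG12194, which held 3. Of the 49 summits in these pairs, 39 were centres of peaks of 420 bp, and the part of this fixed form in the distances was not tested. Cp190, an insulator and centrosome protein gene, had a summit 74 bp upstream with a signal of 734.3, and CG4338 had another at its own TSS, 3 bp upstream, with 326.3. RpL34a–Trmt61 held summits of 595.0 and 242.5, 25 bp upstream of RpL34a and 3 bp upstream of Trmt61. At 9 of the 24 pairs a replicate region matched more than 1 summit, so the replicates did not always separate the summits that the pooled list separated.

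Among the 12 gene groups examined, cytoplasmic ribosomal protein genes had the largest share at divergent CG6813 summits. Of the 84 annotated, 36 were in divergent pairs, and 30 of those (83.3%, 67.2 to 93.6) were at a member summit, against 16.7% of the 4466 genes in all divergent pairs. They took part in 32 summits with a median signal of 622.7, against 252.8 over all members, and no pair held more than 1 of them. RpL7 was the strongest, with 967.6 in replicate 2 and 486.6 in replicate 3. RpS27 followed, with 829.4 and 395.0, then RpL14, with 687.4 and 371.9. The weakest was RpS14a, with 136.8 and 75.7, whose summit lay 67 bp inside the gene. Another 35 summits lay at single promoters of ribosomal protein genes, so binding at these genes was not confined to divergent pairs.

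The partners of the ribosomal protein genes were of many kinds. RpL13 lay opposite Dref, which encodes the factor that binds the DRE, with a signal of 654.2 and the summit 3 bp downstream of the TSS. RpL28 lay opposite eIF1, a translation initiation factor gene, with 712.5 and the summit 48 bp upstream. RpL41 lay opposite NaCP60E, a sodium channel gene, with 889.5 and the summit 37 bp upstream. RpL36 lay opposite Mybbp1A, with 277.5, and RpL29 opposite Sgf29, with 295.4. The ribosomal protein gene was the gene of the nearest TSS for 29 of the 30.

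Summits at pairs with a ribosomal protein gene lay closer to the nearest TSS of either gene. The 32 had a median of 24 bp upstream, and the other 365 a median of 58 bp upstream. For the 29 summits whose nearest TSS was that of a ribosomal protein gene, the median was 25 bp upstream. Between 1 and 60 bp upstream lay 19 of the 32 (59.4%) and 76 of the 365 (20.8%). These members also had higher signals, and the part of signal in the position was not tested. Among members at or above the upper quartile of signal, 442.8, the median signal was 668.4 for the 23 with a ribosomal protein gene, with quartiles at 602.9 and 786.1, and 666.3 for the 77 others, with quartiles at 516.4 and 928.4. Of these strong members, 16 of 23 (69.6%, 47.1 to 86.8) and 14 of 77 (18.2%, 10.3 to 28.6) lay within that band. The medians of spacing were 269 and 264 bp.

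The median replicate ratio was lower at the ribosomal protein genes. Over all members it was 2.01 with a ribosomal protein gene, with quartiles at 1.82 and 2.21. Without one it was 2.21, with quartiles at 1.62 and 2.85, a range that held the whole ribosomal one. In the set of strong members above, the median ratio was 1.99 for the 23, with quartiles at 1.83 and 2.15. For the 77 it was 2.70, with quartiles at 2.33 and 3.13. Only among these strong members did the quartile ranges not overlap. The 35 summits at single promoters of ribosomal protein genes had a median ratio of 1.91 and a median position 12 bp upstream. The median ratio was 2.15 at the other single promoters, so lower ratios and positions near the TSS were also seen outside divergent pairs. The set of strong members and the 60-bp band were chosen after the values had been seen, and no test was made.

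**Figure D4:**
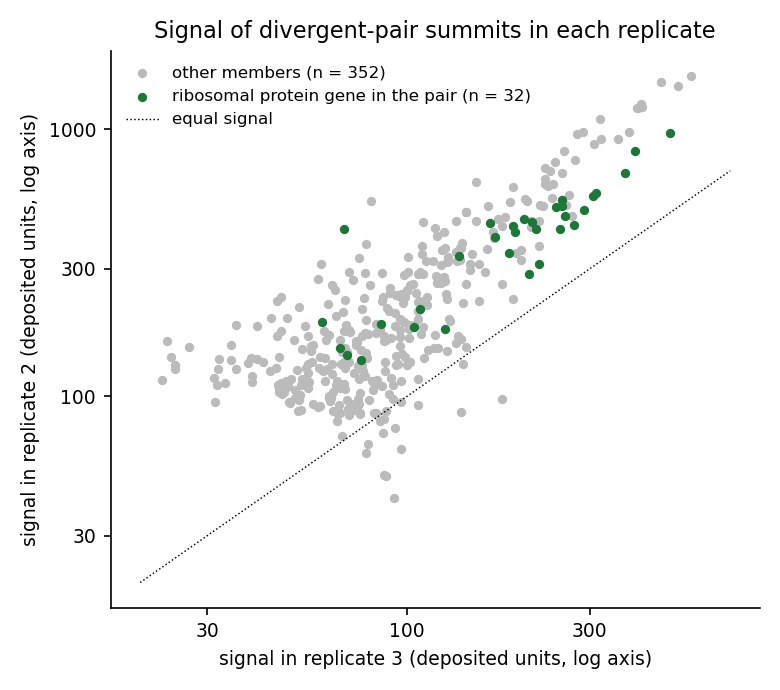
Signal of each divergent-pair summit in replicate 2 against replicate 3, on log axes in the authors' deposited units, for the 384 summits with a region in both. Green points are the 32 summits with a cytoplasmic ribosomal protein gene in the pair and grey points the other 352; most green points at high signal lie along the lower edge of the cloud, nearer the dotted line of equal signal.

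Mitochondrial ribosomal protein genes were at member summits in 8 of 53 cases (15.1%, 6.75 to 27.6), a share near the 16.7% of all genes of divergent pairs, although mRpS23 and mRpS10 belonged to the strongest pairs of all. The other 6 were mRpL23 with a signal of 993.7, mRpS2 with 505.9, mRpL24 with 497.8, mRpL2 with 321.0, mRpL20 with 265.9 and mRpS18B with 175.0. Only 3 of the 8 were the gene of the nearest TSS. Their median ratio was 2.74 and their median position 60.5 bp upstream, unlike the cytoplasmic set.

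Other groups were close to the background or under it. Translation factor genes were at a summit in 6 of 23 cases (26.1%, 10.2 to 48.4), led by eIF4EHP and eIF1. Transcription machinery genes were in 10 of 51 (19.6%, 9.82 to 33.1), led by Polr3E, a subunit gene of RNA polymerase III, with 647.9, and MED30, a Mediator subunit gene, with 446.1. Aminoacyl-tRNA synthetase genes were in 4 of 21 (19.05%, 5.45 to 41.9), with IleRS at 470.3 and ThrRS at 270.7. Respiratory chain genes were in 5 of 39 (12.8%, 4.30 to 27.4), the strongest being ND-42 at 238.3 and ND-MWFE at 229.8. All 4 intervals contained the background share.

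Splicing genes were in 2 of 19, SmD3 at 299.6 and snRNP-U1-C at 153.8, and chemoreceptor genes in 1 of 18, Ir60e at 152.0. No gene was at a member summit among 24 proteasome genes (an exact 95% upper bound of 14.2%), 11 replication genes (28.5%), 4 mitochondrial import genes (60.2%) and 3 cuticle protein genes (70.8%) in divergent pairs. The proteasome bound lay under the background share of 16.7%, and the other 3 bounds lay above it.

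A DRE, the 8 bases TATCGATA that are their own reverse complement, was present in the 201-bp window of 41 members (10.3%, 7.51 to 13.7). 4 examples are shown for the element itself, from members above the median signal whose DRE lies outside exons. The strand is the plus strand of the same assembly, and the capitals mark the DRE.
RpL28–eIF1, chr3L:3223034-3223063, + strand: ggcagggcaacTATCGATAagcatttcgta
RpS25–CG4820, chr3R:11216328-11216357, + strand: gctcgcctgccTATCGATAgttggtggtgg
RpL34a–Trmt61, chr3R:26059292-26059321, + strand: atattaattgcTATCGATAatttcaaaaca
strat–mtsh, chr2L:8320281-8320310, + strand: taagtatcgtcTATCGATAacgacacagtg

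The DRE was present at 35 of 1425 single-promoter summits (2.46%, 1.72 to 3.40) and at 8 of 2979 summits far from a TSS (0.269%). Relative to the nearest TSS, the median summit position was −137 bp at single promoters and −52 bp at members. A 201-bp window centred at −137 bp does not reach the TSS, and one centred at −52 bp does. The part of this placement in the contrasts with single promoters, here and for the sequences below, was not tested. The DRE was also present at 205 of 1868 midpoints of divergent pairs without a thresholded summit (10.97%, 9.59 to 12.5), an interval that held the members' value, and at 57 of 783 divergent regions below the threshold (7.28%, 5.56 to 9.33). Members with a DRE lay between the TSSs in 87.8% of cases and those without in 68.5%. Their median signals were 228.9 and 255.7. The DRE lay a median of 50 bp from the summit. By signal, the strongest members with a DRE were at RpL41, RpL19 and Lamtor3.

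The other elements were likewise read against these sets. Ohler motif 7, a core promoter element of broadly expressed genes, was in 12.8% of members (9.72 to 16.5), 4.21% of single-promoter summits (3.23 to 5.39) and 7.87% of midpoints without a summit (6.69 to 9.18). In divergent regions below the threshold it was in 9.58% (7.61 to 11.9), an interval that overlapped that of the members. The ZIPIC sequence AGGGCTG was in 6.30% (4.12 to 9.16), 1.89% (1.25 to 2.74) and 4.07% (3.22 to 5.07). ZIPIC is itself a ZAD zinc finger protein with insulator function. Windows with at least 2 copies of CGATA, the BEAF-32 core, were 19.1% of members (15.4 to 23.4), 9.40% of single-promoter summits and 25.5% of midpoints (23.6 to 27.6). A DRE contains CGATA on both strands and so counts in that share, and 35 of the 76 members had the pair of copies without a DRE.

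The E-box CAGCTG was in 16.4% of members, 11.2% of single-promoter summits and 14.3% of midpoints. The core of Ohler motif 1, GGTCACAC, was in 5.29%, 2.18% and 6.85%, and Ohler motif 6 in 2.52%, 0.351% and 2.62%. TATAAA was in 38.8%, 30.8% and 38.5%, and the Pho sequence GCCATNTT in 3.78%, 4.42% and 3.75%. Repeats showed the opposite order between the windows of the promoter classes, and the part of window placement in this was likewise not tested. GAGAGAG was in 7 members (1.76%, 0.712 to 3.599) and in 9.89% of single-promoter summits (8.39 to 11.6), with 2.94% of midpoints. CACACACA was in 3.53% of members (1.94 to 5.85) and 6.67% of single-promoter summits (5.43 to 8.09), with 1.82% of midpoints (1.26 to 2.53). In divergent regions below the threshold, the shares were 3.70% for ZIPIC (2.49 to 5.28), 17.9% for the pair of CGATA copies, 16.2% for the E-box, 6.13% for the core of Ohler motif 1, 1.53% for Ohler motif 6, 25.2% for TATAAA (22.2 to 28.4), 4.598% for the Pho sequence, 3.70% for GAGAGAG (2.49 to 5.28) and 5.75% for CACACACA. Of the 11 sequences, only TATAAA had an interval there that did not overlap the members' (34.0 to 43.8). Their median GC content was 41.8%, above the members' 35.3%. Both strands were searched for every sequence. Over windows of the same length centred on all coding TSSs, the shares were 6.44% for the DRE, 6.80% for Ohler motif 7, 2.49% for ZIPIC, 16.4% for the pair of CGATA copies, 13.4% for the E-box, 5.68% for the core of Ohler motif 1, 1.43% for Ohler motif 6, 26.9% for TATAAA, 4.21% for the Pho sequence, 4.68% for GAGAGAG and 3.99% for CACACACA.

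**Figure D5:**
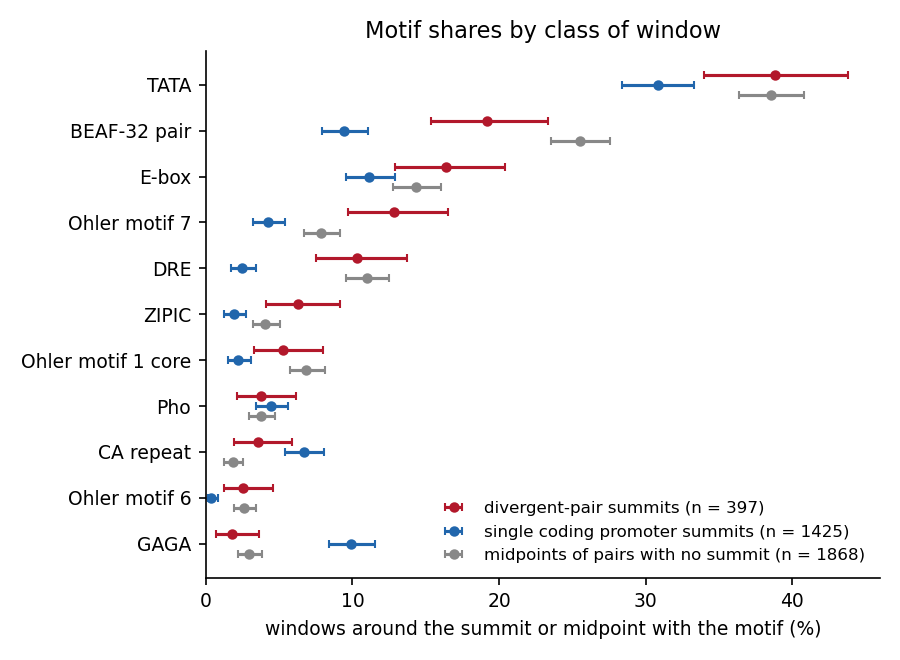
Share of 201-bp windows that hold each searched sequence, with exact 95% binomial intervals, at divergent-pair summits (red), at single coding promoter summits (blue) and at midpoints of divergent pairs without a thresholded summit (grey). For the DRE the red and grey points lie together (10.3 and 10.97%) and the blue point at 2.46%, and for GAGAGAG the blue point is the highest (9.89%). Red and blue windows are centred on summits, which differ between these classes in their median position relative to the TSS.

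In all, 292 of the 397 members held at least 1 of the 11 sequences. The 5 sequences of 7 bases with the largest excess over windows 500 bp to either side were made of A and T. AAATAAA was in 37.5% of members, 11.3% of flanking windows and 32.5% of midpoints of pairs without a summit, and TTTAAAA in 27.7, 4.16 and 26.0%. AAATTAA was in 28.2, 4.79 and 22.3%, AAAATAT in 29.2, 6.55 and 29.1%, and AATTTAA in 26.2, 3.78 and 24.1%. Flanks of the pairs without a summit were not measured.

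A sequence that differed more from those midpoints was CTACGCC, with reverse complement GGCGTAG. It was chosen for the highest ratio to them among 7-base sequences in at least 10 members, so its share is a description. It was in 15 members (3.78%), in 2.27% of windows 500 bp away and in 0.321% of the midpoints. Of the 20 strongest summits, 4 had it, at CHMP2B–Tcs5, CG5611–Mtl, CG3552–CG3437 and mRpL23–CG9004. It is shown here in 5 of the stronger members with its neighbouring bases, on the strand that reads CTACGCC, in capitals, with the same assembly.
CHMP2B–Tcs5, chr3L:5139556-5139584, + strand: aaacttaccatCTACGCCcatgatttcat
CG5611–Mtl, chr3R:27636069-27636097, - strand: attgctatcgaCTACGCCcatgctgccta
CG3552–CG3437, chr3L:9457703-9457731, - strand: aaaaatttgagCTACGCCtttgatccaaa
mRpL23–CG9004, chr3L:2373518-2373546, - strand: cgacccccttgCTACGCCtgtgtccgccc
Lamtor3–fws, chr2L:17481185-17481213, + strand: tcgaccgccgaCTACGCCcctgccacatg

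The copy at CHMP2B–Tcs5 and that at CG5611–Mtl lay in intervals printed in full or in part above. The other members with the sequence had signals from 152.4, at CG3434–CG44838, to 958.2, at CG8320–Pex11ab, so it was not confined to strong summits.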

How the data were processed

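CG6813-eGFP ChIP-seq lists of 2 replicates were analysed. The authors deposited, per the labels' file listing, a list for each replicate, a pooled list and an optimal thresholded list, all on dm6, each with 1 signal value per region as the peak caller gave it. Signal values were used to describe and rank regions within a list. Aligner, caller, IDR cutoff and normalization: not given in the sources used here. The lists hold no counts, so depth is unknown. The dm3 lists were not used.

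Summits were assigned to TSSs of the Ensembl BDGP6.54 annotation, release 115, without transposable elements. The closest opposite-strand TSS 0 to 500 bp upstream defined the pair. Of the members, 12 had TSSs of more than 1 gene at equal distance. Summits of different lists were matched within 200 bp, taking the nearest. Sequence was read from the RefSeq Release 6 genome, 100 bp to each side of a summit. The 12 gene lists were defined by gene symbol. Shares have exact 95% binomial intervals (SciPy 1.17.1; Python 3.11.15). With 1 group there was no comparison of conditions and no p-value, and regions are not replicates. The rule that assigns summits to classes was tested on a few made-up TSSs and summits with known classes, and the other steps were not.

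Named genes are those of the 20 strongest members with a region in both replicates, the 2 strongest of each list, the 3 highest and lowest replicate ratios, and the 3 narrowest and widest pairs among the 100 strongest. Other genes named, among them all further members of a list and pairs with more than 1 summit, and the 7-base sequences were chosen after their values were seen. The members, lists and sequences were chosen with earlier results of these data known. Alternatives tried were other distances, spacings, TSS choices, windows, matching distances, a stricter list and each replicate list alone.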

Additional observations from a re-analysis of the deposited data

How the results depend on the processing

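The number of divergent summits was 397. It became 101 with a spacing of at most 200 bp, 617 with 1000 bp, 230 in a stricter list, the peaks above the median signal of the thresholded list, and, in an alternative chosen after seeing the data, 596 when any TSS of the nearest gene could define the pair. From a single replicate list it ranged from 374 to 464. The share between the TSSs (70.5%) was 42.6% with a spacing of 200 bp, 61.4% with summits up to 1000 bp from a TSS, 61.7% with the most 5′ TSS of each gene and 76.1% in the stricter list. It was 75.1% from replicate 2 alone and 60.8% from replicate 3 alone. Coding partners (96.0%) were 93.1% and 91.7% with spacings of 200 and 1000 bp, and 91.6% with any TSS.

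The divergent share of coding-promoter summits (21.8%) was 30.7% and 19.5% with a TSS distance of 200 and 1000 bp, 5.54% and 33.9% with a spacing of 200 and 1000 bp, 26.9% with the most 5′ TSS and 32.7% with any TSS. The share of genome pairs with a summit (19.1%) was 16.8% and 23.8% with the same TSS distances, 15.4% with a spacing of 200 bp and 11.5% in the stricter list, and 17.9 to 21.8% from single replicates. The log2 difference from single promoters (0.12) was 0.17 with a TSS distance of 200 bp, 0.064 and 0.015 with spacings of 200 and 1000 bp, 0.063 in the stricter list and 0.024 to 0.15 from single replicates. It stayed above 0 but came close to 0. Matching within 100 bp gave 89.7% of members with a region in both replicates.

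Motif shares moved with the window, as its length implies. In windows of 50 bp to each side they were 4.79% for the DRE, 1.76% for Ohler motif 1, 6.30% for the E-box, 0.504% for GAGAGAG, 1.26% for CACACACA, 25.2% for TATAAA, 2.02% for Pho, 2.77% for ZIPIC, 8.82% for the pair of CGATA copies and 4.03% for Ohler motif 7. In windows of 150 bp they were 14.6% for the DRE, 27.96% for the E-box, 50.1% for TATAAA, 6.30% for Pho, 30.7% for the pair of CGATA copies and 18.6% for Ohler motif 7. Counting only the gene of the nearest TSS left 3 mitochondrial ribosomal protein, 2 respiratory chain, 2 translation factor, 4 transcription machinery, 1 splicing and 0 chemoreceptor genes. The cause of the other changes was not tested. No result with a sign changed it. No paired analysis was possible because the samples form 1 group. Depth is unknown, so no limit of detection could be given.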
